A study of Mus musculus with 55 samples.

Results

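The unfolded protein response was followed through 10 of its genes (Hspa5, Hsp90b1, Pdia4, Sdf2l1, Dnajb9, Herpud1, Xbp1, Atf4, Ddit3 and Trib3), taken by name from the 47937 genes counted in bulk RNA-seq of mouse pancreatic islets. They were not chosen by their values in these libraries. The 16 libraries came from C57B6/J mice, by the study's methods males, of 3 genotypes and 2 ages: at 8 weeks 3 wild-type, 3 heterozygous and 3 βEedKO libraries, and at 25 weeks 3 wild-type, 2 heterozygous and 2 βEedKO libraries. βEedKO mice (Eed -/- in the labels) are homozygous for a floxed Eed locus and carry RIP-cre (Tg(Ins2-cre)23Herr), an insulin promoter transgene that drives recombination in β cells, so that the other cells of the islet keep Eed. Eed is a core subunit of the Polycomb repressive complex PRC2. Whether wild-type and heterozygous mice carried the Cre transgene was not given in the sources used here. The libraries were made from whole islets that had been released with collagenase, hand-picked and kept in culture medium. Per the study's methods a library held the islets of 1 or 2 animals, except that each βEedKO library at 25 weeks held those of at least 4. The comparisons address whether the response changes when β cells lack Eed, before and after the disease of these mice is established.

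The unfolded protein response matches the folding capacity of the endoplasmic reticulum (ER) to its load of unfolded protein. The sensors ATF6 and IRE1 raise chaperones and the machinery of ER-associated degradation (ERAD), IRE1 by splicing Xbp1 mRNA, while PERK slows translation and lets the transcription factor ATF4 induce CHOP, the product of Ddit3, and other targets. In β cells, which fold large amounts of proinsulin, the response works continuously, and its PERK and CHOP branch is known for its link to β cell failure. Counts per gene do not measure Xbp1 splicing, phosphorylation or protein, and none of these was analysed here.

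Promoters of this pathway carry short elements by which ATF6, XBP1 and ATF4 are known to act, and the 3 promoters that held such elements best are shown for that reason. The sequences are from RefSeq (GRCm38.p6), written 5′ to 3′ on the strand of the gene, and capitals mark the elements. The Hspa5 stretch is chr2:34771913-34772063 on the plus strand, bases -177 to -27 from the RefSeq start. The Hsp90b1 stretch is chr10:86705513-86705676 on the minus strand, bases -232 to -69. The Herpud1 stretch is chr8:94386296-94386407 on the plus strand, bases -133 to -22.
Hspa5: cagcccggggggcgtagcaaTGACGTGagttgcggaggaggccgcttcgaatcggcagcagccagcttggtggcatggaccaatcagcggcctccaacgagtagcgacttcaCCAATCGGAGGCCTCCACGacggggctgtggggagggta
Hsp90b1: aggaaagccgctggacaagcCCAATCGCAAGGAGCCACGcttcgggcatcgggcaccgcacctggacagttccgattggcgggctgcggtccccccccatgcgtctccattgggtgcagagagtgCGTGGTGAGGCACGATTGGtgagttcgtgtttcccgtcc
Herpud1: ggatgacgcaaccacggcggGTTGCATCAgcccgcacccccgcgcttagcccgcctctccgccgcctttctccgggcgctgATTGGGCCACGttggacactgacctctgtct

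The ER stress response element (ERSE), searched as CCAAT, any 9 bases and CCACG on both strands, stood once in Hspa5 and at 2 places in Hsp90b1, the second of them on the opposite strand. Of the 32851 promoters in the RefSeq table, each 250 bases before to 50 bases after a start, 0.119% held it. ERSE-II, searched as ATTGG, any 1 base and CCACG, stood in Herpud1 and in 0.0365% of all promoters. The core of the unfolded protein response element (UPRE), TGACGTG, was the first capital run of Hspa5 and was found in 2.01% of all promoters. The ATF4 and CHOP composite element, TGATG, any base, AA and any base, was read on the opposite strand of Herpud1, and of Trib3 at bases 13 to 21 after the start. It stood in 3.95% of all promoters. The elements as searched did not overlap in these promoters, and the other 6 genes held none of these letters in this window.

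In the chromatin segmentation of wild-type islets the start sites of all 10 genes lay in state A, a state of active start sites. Of the 42903 counted genes with a state at the start site, 16.3% lay in state A, and of 81 other genes of the pathway 53 (65.4%) did. The state A segment at the start ran over 5600 bp at Hspa5 (chromosome 2 from 34771970 to 34777547, GRCm38), where state A also covered 96.4% of the gene body. At Trib3 (chromosome 2 from 152337422 to 152344032) it was 400 bp long. There state B covered more of the 500 bp on either side of the start than state A. Over 1000 bp on either side of the Trib3 start, state L covered more bases than A or B. The study describes L as bivalent and silenced by Polycomb. In the same window L also lay at Sdf2l1, Dnajb9 and Xbp1, over fewer bases than A, and at none of the other genes. The state with the largest share of the gene body was G at Hsp90b1, Pdia4 and Ddit3, F at Herpud1 and Dnajb9, B at Sdf2l1 and Atf4, C at Xbp1 and X at Trib3. The segmentation holds state letters for wild-type islets only, with no measured level, so it gives no comparison with βEedKO islets.

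The depth was 4645393 to 22925359 reads counted in genes per library, and each of the 10 genes had at least 36 reads in every library. Levels are reads per 1e+06 reads (CPM) scaled with TMM factors. Eed, the targeted gene, had 23.9, 33.1 and 31.2 CPM in wild-type and 14.9, 13.4 and 14.8 CPM in βEedKO libraries at 8 weeks (log2 fold change -1.04, adjusted p = 0.0881, edgeR). At 25 weeks it had 28.3, 22.0 and 19.3 CPM against 15.6 and 14.2 CPM (log2 fold change -0.69, adjusted p = 0.142, edgeR), and heterozygous libraries had 16.3 to 20.5 CPM. Every βEedKO library was below every wild-type library, though neither difference was called. The libraries fell into 3 sets that crossed the genotypes, which were seen in these data after the values of the 10 genes were known. The first set held 4 libraries low in NF-κB target genes, with a summed level of 58.0 to 132 CPM against 476 to 1271 CPM in the other 12: replicate 1 of wild type and of βEedKO at 8 weeks, and replicate 2 of the same genotypes at 25 weeks. The second set held 4 libraries high in interferon-induced genes, at 2860 to 4079 CPM against 31.3 to 90.7 CPM in the other 12: wild-type replicates 3 and 4 and βEedKO replicates 4 and 5 at 8 weeks. The third set held all heterozygous libraries, wild-type replicates 3 and 4 and βEedKO replicate 3 at 25 weeks. β cell markers summed to 11909 and 14944 CPM in the βEedKO libraries at 25 weeks and to at least 110679.6 CPM elsewhere. Acinar markers reached 332404 CPM in βEedKO replicate 2 at 25 weeks and 10422 CPM in replicate 3, against 19969 to 184571 CPM elsewhere. In bulk samples fewer cells of a type and less RNA per cell cannot be told apart.

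Per kilobase of exon, the chaperone genes stood at the top. In wild-type islets at 8 weeks Hspa5 had 981 ± 488 CPM per kb (SD, n = 3 libraries) and Hsp90b1 441 ± 198 CPM per kb. Dnajb9, Herpud1, Atf4 and Xbp1 followed between 186 and 138 CPM per kb, Pdia4 and Sdf2l1 at 91.6 and 76.1 CPM per kb, Ddit3 at 40.6 ± 15.7 CPM per kb and Trib3 at 16.0 ± 12.9 CPM per kb. Every gene overlapped its neighbour in this order over the 3 libraries. Hspa5 was the highest and Trib3 the lowest of the 10 in each of the 6 groups by mean level per kb.

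**Figure D1:**
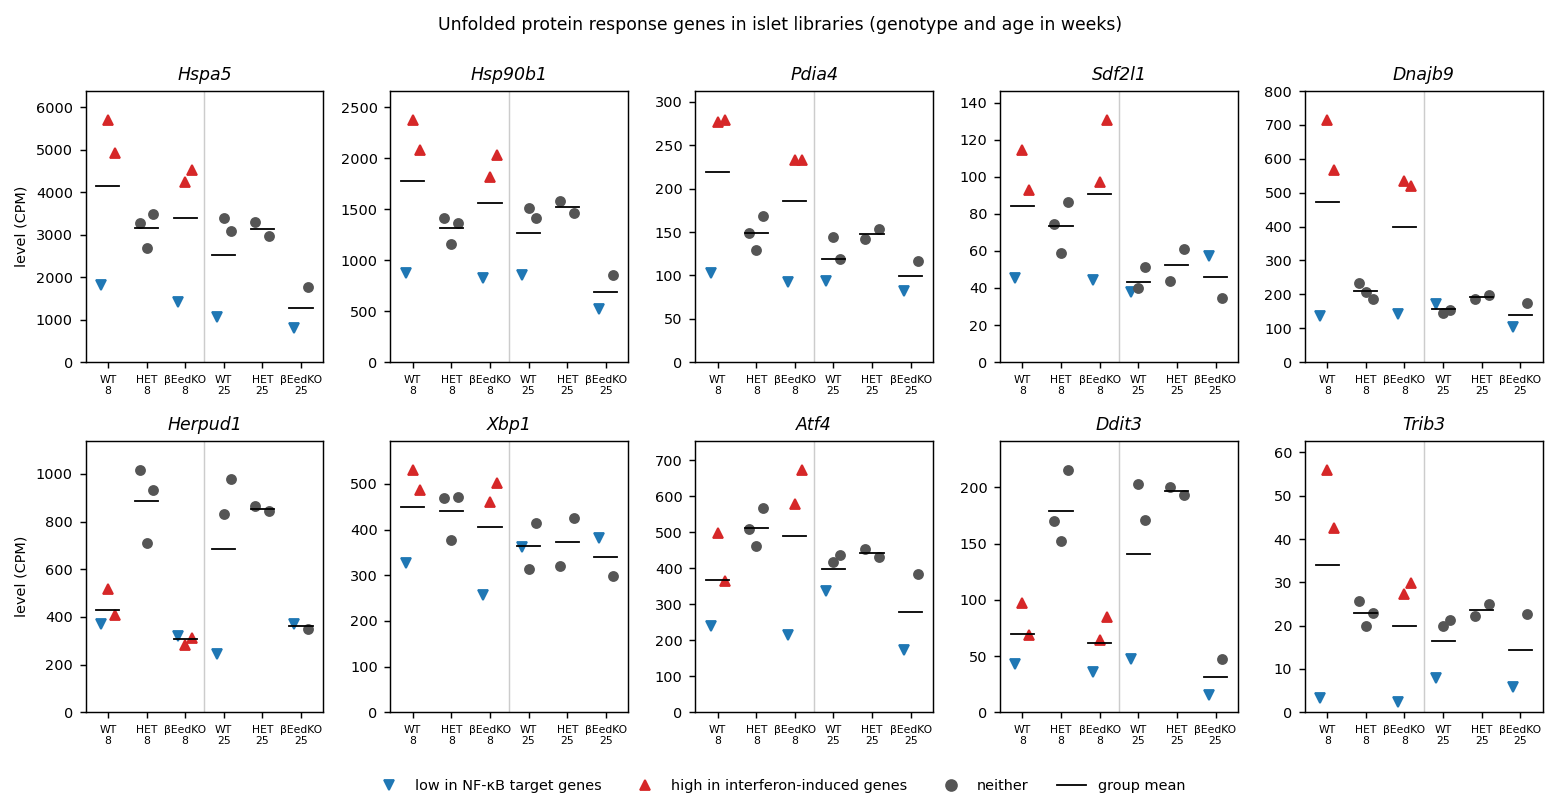
Level of each of the 10 genes in each of the 16 islet libraries (CPM, linear axes from 0), by genotype and age in weeks. Points are libraries, marked by library set, and lines are group means; Hspa5, Hsp90b1, Pdia4, Sdf2l1, Dnajb9 and Trib3 are highest in the 4 libraries high in interferon-induced genes (red), and Herpud1 and Ddit3 are highest in libraries of the third set (grey).

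Hspa5 encodes BiP, the main Hsp70 chaperone of the ER lumen, which also holds the sensors inactive. It had 1812, 5709 and 4928 CPM in the wild-type libraries at 8 weeks (replicates 1, 3 and 4) and 1423, 4231 and 4527 CPM in the βEedKO libraries (replicates 1, 4 and 5). In both groups replicate 1 was far below the others, and the groups overlapped. At 25 weeks it had 1064, 3404 and 3083 CPM in wild type (replicates 2, 3 and 4) and 794 and 1765 CPM in βEedKO (replicates 2 and 3). The heterozygous libraries lay close together, at 2688 to 3487 CPM at 8 weeks and 2976 and 3299 CPM at 25 weeks. Hspa5 thus differed 7.19-fold between its lowest and its highest library, with the largest steps inside the wild-type and βEedKO groups.

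Hsp90b1 encodes GRP94, the Hsp90 of the ER. Its levels were 873, 2379 and 2082 CPM in wild type and 829.7, 1819 and 2032 CPM in βEedKO at 8 weeks. At 25 weeks they were 858, 1516 and 1418 CPM in wild type against 524 and 853 CPM in βEedKO. Both βEedKO libraries lay below all 3 wild-type libraries, but replicate 3 of βEedKO was only just below replicate 2 of wild type. The exons of Hsp90b1 share 415 bp with a pseudogene on the opposite strand, and whether the counting used strand was not stated.

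Pdia4 encodes a protein disulfide isomerase, Sdf2l1 a partner of BiP and Dnajb9 the BiP co-chaperone ERdj4. Pdia4 had 103, 277 and 279 CPM in wild type and 92.7, 233 and 234 CPM in βEedKO at 8 weeks, and 93.8, 144 and 119 CPM against 82.6 and 117 CPM at 25 weeks. Sdf2l1 had 45.5, 114 and 93.0 CPM against 44.1, 97.3 and 131 CPM at 8 weeks, and 37.9, 39.8 and 51.4 CPM against 57.5 and 34.5 CPM at 25 weeks. The genotypes overlapped for both genes at both ages, and the highest Sdf2l1 value at 25 weeks in these groups belonged to the βEedKO library with the most acinar marker RNA. The part of acinar cells in it was not tested.

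Dnajb9 split the 8-week libraries most clearly among the chaperones. It had 138, 715 and 568 CPM in wild type and 141, 534 and 519 CPM in βEedKO, while the 3 heterozygous libraries of that age had 233, 207 and 187 CPM. At 25 weeks it stayed between 146 and 173 CPM in wild type and had 105 and 175 CPM in βEedKO. Within the 8-week groups the mean of the 4 libraries high in interferon-induced genes was 4.20 times that of the 2 replicates 1. Over 18694 genes the median ratio was 0.929, and 11.0% of them had a ratio of 2 or more.

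All 4 libraries high in interferon-induced genes lay above all other 12 for 6 of the 10 genes: Hspa5, Hsp90b1, Pdia4, Sdf2l1, Dnajb9 and Trib3. Of all genes tested 8.18% did so. Between these libraries and both replicates 1 of their groups the ratio of means was 3.0 for Hspa5, 2.44 for Hsp90b1, 2.61 for Pdia4 and 2.43 for Sdf2l1. Wild-type and βEedKO libraries were on both sides of this split, and a test of it was not made since the libraries were grouped by their own values. What set these libraries apart was not tested.

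Herpud1 encodes an ER membrane protein that organises the ERAD ubiquitin ligase complex. It followed another order. The heterozygous libraries had 1017, 709.7 and 932 CPM at 8 weeks and 864 and 843 CPM at 25 weeks. Wild-type libraries had 369, 516 and 407 CPM at 8 weeks and 246, 834 and 980.3 CPM at 25 weeks. The βEedKO libraries had 321, 284 and 313 CPM at 8 weeks and 371 and 351 CPM at 25 weeks. Every βEedKO library lay below every heterozygous library of its age, and at 8 weeks below every wild-type library too. Against heterozygous libraries 2 of the 10 genes were without overlap lower in βEedKO at 8 weeks, Herpud1 and Ddit3, as were 14.5% of all genes, and 7 of the 10 at 25 weeks, against 27.9%; the exceptions at 25 weeks were Sdf2l1, Xbp1 and Trib3. The heterozygous libraries were all of the third set, and of the βEedKO libraries only replicate 3 at 25 weeks was. Genotype and library set are therefore mixed in these counts. At 8 weeks the wild-type libraries also lay below all heterozygous libraries for Herpud1 and Ddit3. The lowest Herpud1 value of all 16 libraries was in wild-type replicate 2 at 25 weeks.

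Xbp1, whose spliced mRNA encodes the transcription factor of the IRE1 branch, was the steadiest, with a 2.07-fold range. It had 328, 531 and 486 CPM in wild type and 256, 461 and 501 CPM in βEedKO at 8 weeks, and 362, 314 and 415 CPM against 381 and 298 CPM at 25 weeks. The genotypes overlapped at both ages. Markers of B and plasma cells, which express much Xbp1, summed to 394 and 525 CPM in the βEedKO libraries at 25 weeks and to 14.2 to 288 CPM elsewhere; their part was not tested.

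Atf4 encodes the central transcription factor of the PERK branch, which is controlled largely at translation. It had 241, 497 and 365 CPM in wild type and 215, 578 and 673 CPM in βEedKO at 8 weeks, and 337, 417 and 437 CPM against 174 and 384 CPM at 25 weeks. The lowest value of each of these 4 groups was in the library low in NF-κB target genes. Those 4 libraries had at most 337 CPM and the other 12 at least 365 CPM. The same split without overlap was found for Pdia4, Ddit3 and Trib3, so for 4 of the 10 genes, and for 3.48% of all genes tested in this direction. For Ddit3 it was only just so, at 47.3 CPM against 47.7 CPM. The set was cut after the values of the 10 genes were seen, so the count is a description.

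Ddit3 encodes CHOP, a transcription factor known to promote apoptosis under lasting ER stress. At 25 weeks it had 47.3, 203 and 171 CPM in wild type (replicates 2, 3 and 4), 199.9 and 193 CPM in heterozygous islets, and 15.2 and 47.7 CPM in βEedKO (replicates 2 and 3). The 2 βEedKO libraries were far below the heterozygous libraries and below wild-type replicates 3 and 4, but replicate 3 of βEedKO and replicate 2 of wild type were level. At 8 weeks it had 43.1, 96.8 and 68.5 CPM in wild type, 35.7, 63.8 and 85.1 CPM in βEedKO and 170.0, 152 and 216 CPM in heterozygous islets. The 8-week wild-type and βEedKO libraries overlapped, and all were below all heterozygous libraries. The Ddit3 exons share 68 bp with Mars on the opposite strand and 105 bp with another gene model of the same name.

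Trib3 encodes a pseudokinase induced by ATF4 and CHOP. It had 3.30, 56.0 and 42.5 CPM in wild type and 2.32, 27.4 and 29.9 CPM in βEedKO at 8 weeks, and 7.85, 20.02 and 21.3 CPM against 5.94 and 22.6 CPM at 25 weeks. The 5 heterozygous libraries lay between 20.01 and 25.7 CPM. The 4 libraries low in NF-κB target genes had 2.32 to 7.85 CPM and the other 12 had 20.01 to 56.0 CPM, the widest step among those 4 genes. It crossed both genotypes and both ages.

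**Figure D2:**
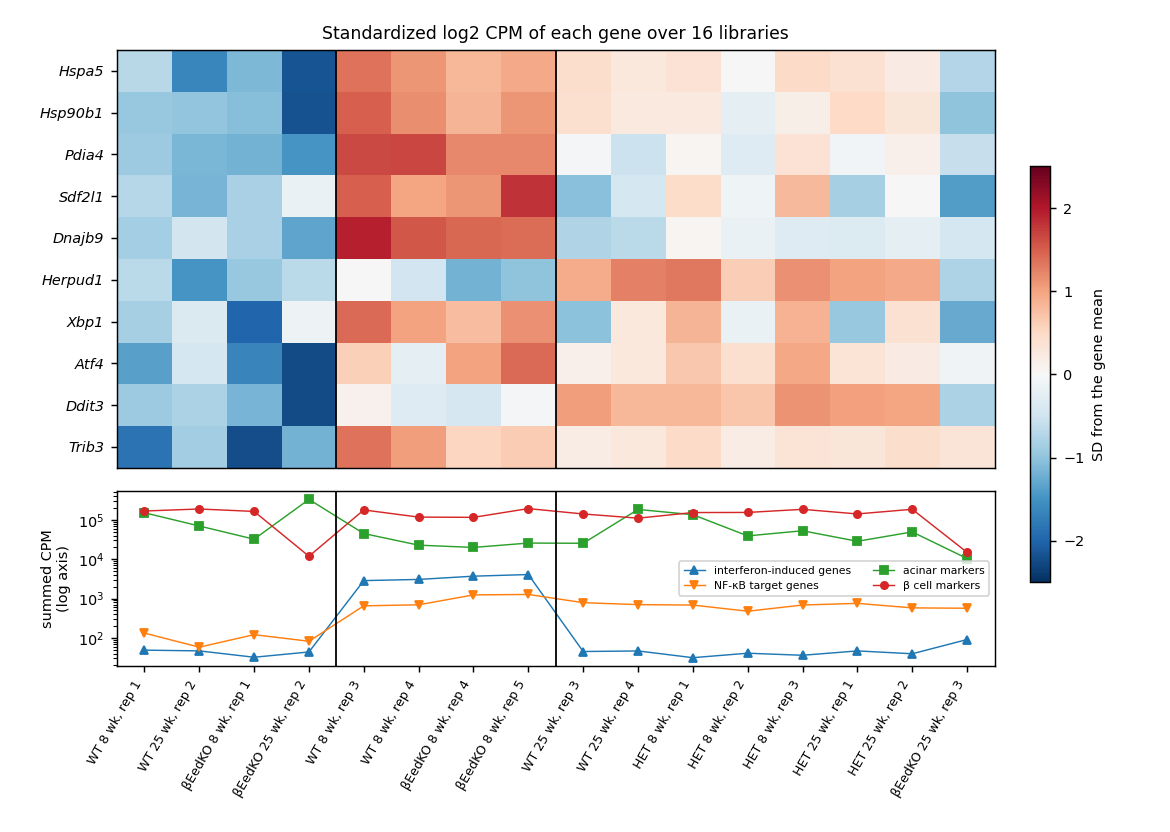
Top, log2 CPM of each gene in each library, standardized over the 16 libraries (colour, SD from the gene mean), with libraries ordered by set: low in NF-κB target genes, high in interferon-induced genes, all others. Bottom, summed CPM of 4 gene lists in the same libraries (log axis); most genes are low in the first set, the chaperone genes are highest in the second, and the last column, βEedKO replicate 3 at 25 weeks, is low in Ddit3, Herpud1 and Hsp90b1 compared with the other libraries of its set.

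Between wild-type and βEedKO islets at 8 weeks none of the 10 genes passed an adjusted p of 0.05 (edgeR quasi-likelihood test, Benjamini-Hochberg over 18685 genes). By the same rule 0.434% of all genes were called. None had an unadjusted p under 0.05 in edgeR, against 7.87% of all genes, and DESeq2 called none of the 10 and 2.17% of all genes. The log2 fold changes ran from -0.78 for Trib3 (SE 1.00) to 0.41 for Atf4 (SE 0.459), with a median of -0.22 against 0.00 over all genes, and the adjusted p ran from 0.870 to 0.984. Herpud1 was the only one of the 10 whose groups did not overlap (log2 fold change -0.50, SE 0.419), in a direction that 4.84% of all genes showed without overlap. In the 4 libraries high in interferon-induced genes alone, a choice made after seeing the data, the values were similar: -0.63 for Herpud1, -0.78 for Trib3 and 0.54 for Atf4, again with none called. Against the heterozygous libraries in place of wild type, Herpud1 was called lower at 8 weeks (log2 fold change -1.53, adjusted p = 0.0394, edgeR), as were 1.14% of all genes. That comparison sets libraries of the first and second sets against libraries of the third only, so genotype and library set cannot be told apart in it.

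At 25 weeks the difference between βEedKO and wild type was largest for Ddit3, with a log2 fold change of -2.22 (SE 0.707), or 4.67-fold lower. With the groups as the only terms it was not called (adjusted p = 0.0975, edgeR), nor was any other of the 10, while 6.6% of all genes were. In edgeR it was the only one of the 10 with an unadjusted p under 0.05 (0.00993), against 20.3% of all genes. DESeq2 called it alone (log2 fold change -2.19, adjusted p = 0.0113), with 11.3% of all genes called by that tool and 4.09% called lower. It was called by edgeR as well with the replicate number as a block (log2 fold change -1.93, adjusted p = 0.0158), where 5.5% of all genes were called and 2.33% called lower. At 25 weeks that fit rests on the numbered pairs of replicates 2 and 3, since wild-type replicate 4 has no βEedKO partner. The replicate 2 pair lies in the first library set and the replicate 3 pair in the third, so the block also takes up the set. Within numbered pairs, Ddit3 was 3.11-fold lower in βEedKO replicate 2 and 4.25-fold lower in βEedKO replicate 3 than in the wild-type library of the same number. The same ratios at 8 weeks were 1.21 for replicate 1 and 1.07 for replicate 4.

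Wild-type replicate 2 carried much of the spread of Ddit3 at 25 weeks. Without it Ddit3 was called (log2 fold change -2.64, adjusted p = 0.0401, edgeR) and so was Herpud1 (log2 fold change -1.39, adjusted p = 0.0231), with 2.14% of all genes called lower. Leaving out each other library in turn left the Ddit3 value between -3.26 and -1.64 and uncalled. With the library set as a term, added after seeing the data, Ddit3 was called (log2 fold change -1.89, adjusted p = 0.000801, edgeR), as was Hsp90b1 (log2 fold change -0.81, adjusted p = 0.0356), when 18.1% of all genes were called and 7.73% called lower. The sets were cut after the values of these genes were seen, and Ddit3 itself was lowest in the first set. The p-values of that fit therefore cannot be taken at face value. Without the 4 libraries low in NF-κB target genes, Ddit3 (log2 fold change -2.01, adjusted p = 0.00533) and Herpud1 (log2 fold change -1.40, adjusted p = 0.0112) were called, with 5.21% of all genes called lower, but then 1 βEedKO library stood for its group and was assumed to vary like the others. With library size alone as the scaling, which moves with the few most abundant genes, Ddit3 was at -1.76 (adjusted p = 0.265).

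The chaperone genes Hspa5 and Hsp90b1 were at -1.04 (SE 0.746, adjusted p = 0.492, edgeR) and -0.94 (SE 0.558, adjusted p = 0.393, edgeR) at 25 weeks. For Hsp90b1 the groups did not overlap, which 15.9% of all genes showed in this direction. Herpud1 was at -0.98 (SE 0.481, adjusted p = 0.290, edgeR), but its numbered pairs went opposite ways: βEedKO replicate 2 had 1.51 times the level of wild-type replicate 2, and replicate 3 had 2.38-fold less. Atf4 was at -0.57 and Pdia4, Trib3, Dnajb9, Xbp1 and Sdf2l1 lay between -0.31 and 0.04, all with an adjusted p of 0.612 or more. Over the 10 genes the median log2 fold change was -0.44 against 0.03 over all genes tested, and 9 of the 10 were negative. These signs are not independent. Over the 16 libraries pairs of the 10 genes correlated at -0.211 (Dnajb9 and Herpud1) to 0.972 (Hspa5 and Hsp90b1). Of the 2 libraries behind the βEedKO mean, replicate 2 was low in NF-κB target genes and high in acinar markers and replicate 3 was neither, and β cell markers were low in both; the part of these in the lower values was not tested.

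**Figure D3:**
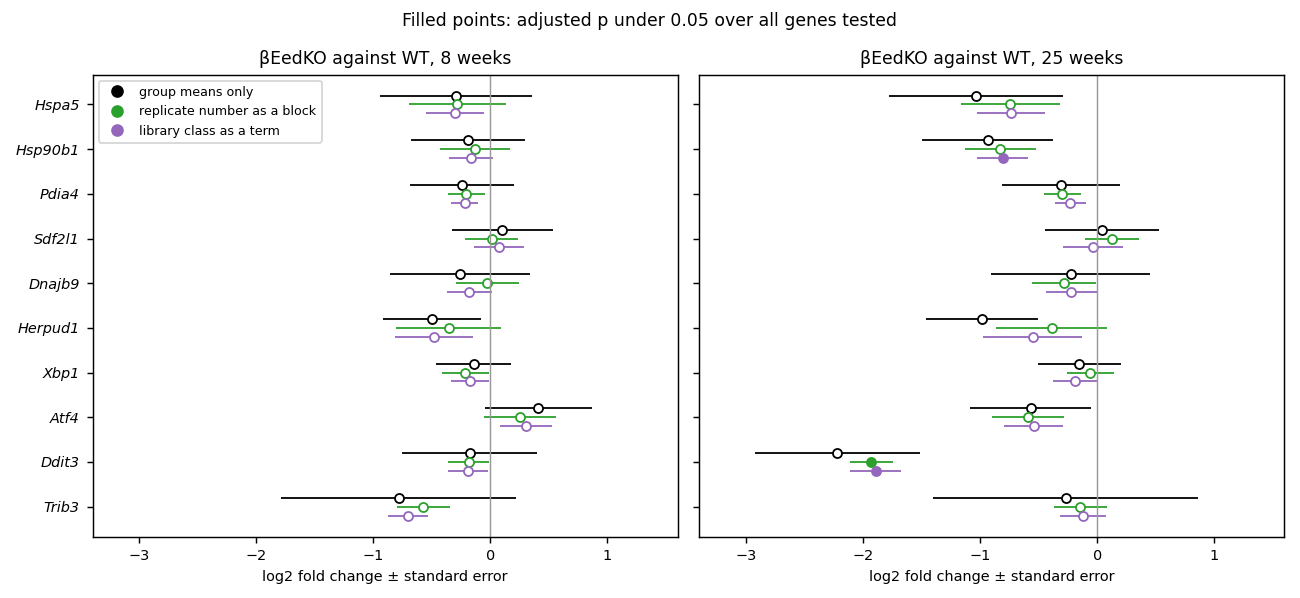
Log2 fold change of βEedKO against wild type (x axis, with standard error as bars) for each of the 10 genes at 8 weeks (left) and 25 weeks (right), with group means only, with the replicate number as a block and with the library set as a term. Filled points passed an adjusted p of 0.05; Ddit3 at 25 weeks is the farthest from 0 in each of the 3 fits and is filled in 2 of them.

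The difference between the ages in the βEedKO effect was tested on its own. For Ddit3 it was -2.05 on the log2 scale (SE 0.892, unadjusted p = 0.0437, adjusted p = 0.619, edgeR), and none of the 10 genes was called, as against 0.198% of all genes. DESeq2 called none of the 10 and 2.05% of all genes. In edgeR Ddit3 was the only one of the 10 with an unadjusted p under 0.05, against 7.76% of all genes. With the replicate block it was -1.75 (adjusted p = 0.174, edgeR), and with the library set as a term -1.70 (adjusted p = 0.0199, edgeR), with 1.27% of all genes called lower. The library sets were cut after the values of the 10 genes were seen, so the p-value with that term cannot be taken at face value.

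In wild-type islets no gene of the 10, and 0% of all genes, was called between 25 and 8 weeks by edgeR. An unadjusted p under 0.05 in edgeR was found for 2 of the 10 and for 10.2% of all genes. DESeq2 called none of the 10 and 0.804% of all genes. Dnajb9 was lower by the largest amount (log2 fold change -1.60, SE 0.616, adjusted p = 0.489, edgeR) and Ddit3 was higher at 1.01 (SE 0.585, adjusted p = 0.533). Without the libraries low in NF-κB target genes 6 of the 10 were called by edgeR: Ddit3 (1.18) and Herpud1 (0.97) higher, and Dnajb9 (-2.10), Trib3 (-1.25), Sdf2l1 (-1.19) and Pdia4 (-1.08) lower. In that fit 21% of all genes were called, and every 8-week wild-type library was high in interferon-induced genes and no 25-week library was, so age and library set cannot be told apart. With wild-type replicate 1 as the only 8-week wild-type library, which is low in interferon-induced genes but also low in NF-κB target genes, age and library set again cannot be told apart, and the lone library was assumed to vary like the other groups. There the log2 fold changes of Dnajb9 (0.24), Pdia4 (0.26), Hspa5 (0.53), Hsp90b1 (0.58), Xbp1 (0.20) and Trib3 (2.38) were positive and none was called.

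Between heterozygous and wild-type islets at 8 weeks none of the 10 was called by edgeR, nor was any other gene (0%). An unadjusted p under 0.05 in edgeR was found for 3 of the 10 and for 14.6% of all genes. DESeq2 called none of the 10 and 2.52% of all genes. The 3 were Herpud1 (log2 fold change 1.04, SE 0.374, adjusted p = 0.266), Ddit3 (log2 fold change 1.37, SE 0.519, adjusted p = 0.286) and Dnajb9 (log2 fold change -1.18, SE 0.524, adjusted p = 0.326). For Herpud1 and Ddit3 the heterozygous libraries lay above all wild-type libraries, as did 10.3% of all genes. Without wild-type replicate 1 and the other libraries of its set 7 of the 10 were called, against 24.7% of all genes, but this compares the second set with the third. At 25 weeks, where heterozygous and wild-type libraries shared a set except for wild-type replicate 2, all 10 genes had an adjusted p of 1.0, none had an unadjusted p under 0.05, and edgeR called 0% of all genes. DESeq2 called none of the 10 and 0.0162% of all genes. The log2 fold changes lay between 0.03 and 0.51. Dnajb9 and Trib3 were higher in both heterozygous than in all wild-type libraries, as were 8.91% of all genes.

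A wider list of 82 genes of the pathway, all of them tested, held few calls as well. At 8 weeks edgeR called none of them, with 7 at an unadjusted p under 0.05 against 7.87% of all genes, and DESeq2 called none. At 25 weeks 3 of the 82 were called, against 6.6% of all genes. Ero1lb, which encodes the β cell enriched oxidase that recharges disulfide isomerases, was lower in βEedKO (log2 fold change -2.16, SE 0.376, adjusted p = 0.00780, edgeR). It had 1357, 1675 and 1615 CPM in wild type and 479 and 238 CPM in βEedKO. The 8-week libraries ranged from 1341 to 1549 CPM against 722 to 906 CPM. This younger difference was not called (log2 fold change -0.88, SE 0.312, adjusted p = 0.459, edgeR). The Ero1lb groups did not overlap at either age. Of all genes, 4.84% were lower without overlap at 8 weeks and 15.9% at 25 weeks. Derl2, a component of the ERAD channel, was lower at 25 weeks (log2 fold change -0.93, SE 0.207, adjusted p = 0.0252, edgeR), with 76.9 to 87.4 CPM in wild type and 43.5 and 45.7 CPM in βEedKO. Pmaip1, which encodes the pro-apoptotic protein NOXA, was higher (log2 fold change 3.93, SE 0.696, adjusted p = 0.00839, edgeR), with 1.74 to 3.40 CPM in wild type against 18.3 and 64.7 CPM in βEedKO. With the replicate block Pmaip1 was no longer called (log2 fold change 4.11, adjusted p = 0.0548, edgeR). Without βEedKO replicate 3 none of the 82 was called at 25 weeks, and without wild-type replicate 3 only Ero1lb was.

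By branch at 25 weeks, the call went to 1 of 22 ER folding genes, 1 of 25 ERAD and translocation genes and 1 of 4 apoptosis genes. It went to 0 of 26 ATF4 target genes and 0 of 5 sensor genes. Of the 82 log2 fold changes 56 were negative, with a median of -0.26 against 0.03 over all genes tested. Of the ATF4 targets 2 had an unadjusted p under 0.05 in edgeR, as had 20.3% of all genes. DESeq2 called 1, Atf5, a transcription factor downstream of ATF4 (edgeR log2 fold change -1.30, SE 0.361, adjusted p = 0.0597). With the replicate block edgeR called Atf5 too (log2 fold change -1.47, adjusted p = 0.0210). Of the sensors 2, Ern1 and Ern2, had an unadjusted p under 0.05 in edgeR, and DESeq2 called none. Ern2 had the largest change of them, at 3.84 (SE 1.68, adjusted p = 0.229, edgeR), and was called higher with the library set as a term (adjusted p = 0.0459, edgeR). Ern1, which encodes IRE1, was at -0.90 (adjusted p = 0.228, edgeR) and Eif2ak3, which encodes PERK, at 0.30 (adjusted p = 0.839, edgeR). Wfs1, an ER membrane protein needed by β cells, was at -1.08 (SE 0.321, adjusted p = 0.0777, edgeR), but was called lower by DESeq2 (adjusted p = 0.0199), with the replicate block (log2 fold change -1.10, adjusted p = 0.0481, edgeR) and with the library set as a term (adjusted p = 0.00497, edgeR). With the replicate block 6 of the 82 were called at 25 weeks, against 5.5% of all genes, and with the library set as a term 14, against 18.1% of all genes, with Ero1lb and Derl2 in both.

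Among 10 genes for ER cargo of islet cells and its processing, 5 were called at 25 weeks, 4 of them lower, when 6.6% of all genes were called. Ins1 had 26817 to 47393 CPM in wild type and 2143 and 2999 CPM in βEedKO (log2 fold change -3.85, SE 0.756, adjusted p = 0.0141, edgeR). Ins2 went from 82329 to 140235 CPM in wild type down to 9597 and 11769 CPM (log2 fold change -3.42, SE 0.959, adjusted p = 0.0626, edgeR). Iapp, Scg2 and Pcsk2 were the others called lower, and Chgb, a granin, was called higher (log2 fold change 3.21, adjusted p = 0.00139, edgeR). At 8 weeks none of the 10 cargo genes was called by edgeR, with 1 at an unadjusted p under 0.05 against 7.87% of all genes. DESeq2 called 1 at that age, Pcsk1. At 25 weeks DESeq2 called 1 cargo gene higher and 6 lower, with Ins1, Ins2 and Pcsk1 among the latter, against 11.3% of all genes. With the library set as a term edgeR called 1 higher and 5 lower, Ins1 but not Ins2 among them, against 18.1% of all genes. With the replicate block 2 of the 10 cargo genes were called at 25 weeks, Chgb higher and Pcsk1 lower, against 5.5% of all genes. Ins1 was then at -4.02 (adjusted p = 0.108, edgeR) and Ins2 at -3.59 (adjusted p = 0.288, edgeR), and Iapp, Scg2 and Pcsk2 were not called either. Heat shock genes of compartments outside the ER were taken for comparison, mostly cytosolic, with Hspd1 and Hspe1 mitochondrial. They were called in 0 of 9 at both ages by edgeR, against 0.434% of all genes at 8 weeks and 6.6% at 25 weeks. At an unadjusted p under 0.05 in edgeR there was 1 at 8 weeks and 2 at 25 weeks, against 7.87% and 20.3% of all genes. DESeq2 called 1 (Hsph1, lower) at 25 weeks and none at 8 weeks. The 9 genes had a median log2 fold change of -0.74 at 25 weeks, against 0.03 over all genes tested. With the replicate block 5 of the 9 were called at 25 weeks, against 5.5% of all genes: Hspa1a, Hspa1b, Hsph1 and Hspe1 lower and Hspb1 higher. Hspa1a and Hspa1b are near-identical copies, whose reads the counting may have split.

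**Figure D4:**
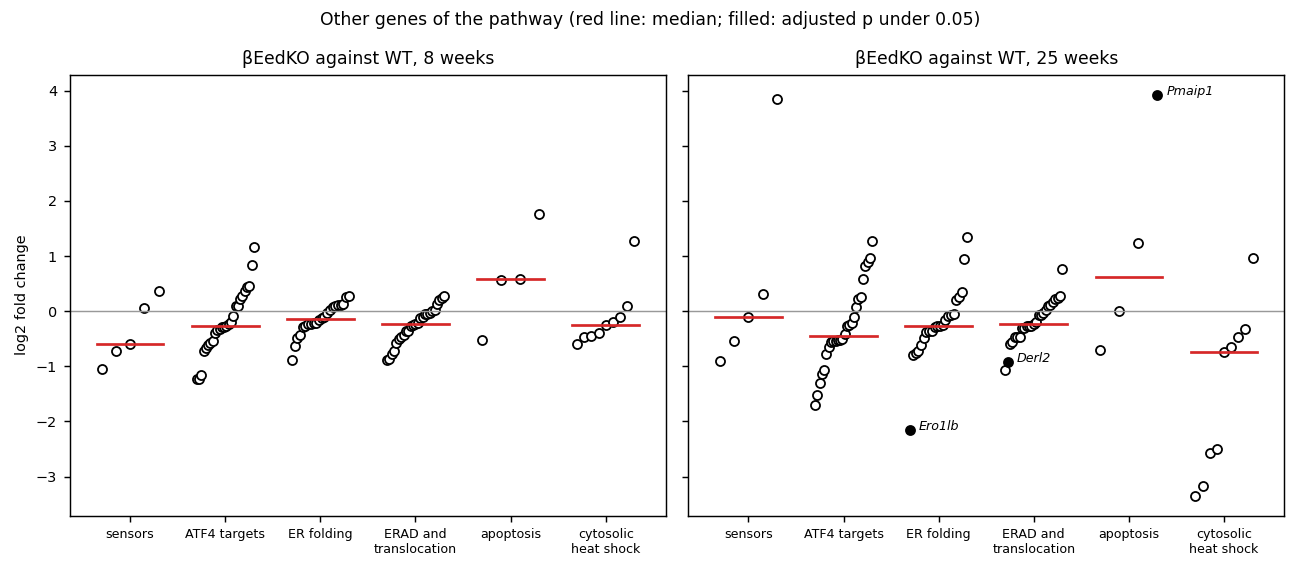
Log2 fold change of βEedKO against wild type at 8 weeks (left) and 25 weeks (right). Shown are the 82 other genes of the pathway by branch and 9 heat shock genes. The heat shock column is labelled cytosolic but also holds the mitochondrial Hspd1 and Hspe1. Points are genes, red lines are medians and filled points passed an adjusted p of 0.05, which at 25 weeks were Ero1lb, Derl2 and Pmaip1.

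The genes whose pattern over the 16 libraries was most like the mean of the chaperone genes, Herpud1 and Xbp1 were Tmem167b, Srp54c and Derl1, with likeness (Pearson's r) of 0.978, 0.973 and 0.970 among 18818 genes. Derl1 had 209.5 to 287 CPM in the 4 libraries high in interferon-induced genes and 94.1 to 184 CPM in the other 12. For the mean of Atf4, Ddit3 and Trib3 they were Dnajb2, Fdps and Rsph4a, at 0.969, 0.960 and 0.954. Rsph4a had 2.13 to 2.89 CPM in the 4 libraries low in NF-κB target genes and 23.5 to 49.2 CPM in the other 12. These values describe libraries that fall into sets, so no test was made of them.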

How the data were processed

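Islet mRNA libraries (TruSeq v2) of wild-type, heterozygous and βEedKO mice were analysed. The deposited values are raw counts per gene, which the authors made with TopHat2 2.0.13 on GRCm38 and featureCounts of Subread 1.5.0-p1 on Gencode M9 gene models; strand use was not stated. The authors also deposited chromatin states of wild-type islets as letters from EpicSeg in bins of 200 bp. ChIP-seq signal and single-cell data were not used here. Names and start sites came from a later GENCODE release of the same build, which held 47310 of the 47937 counted genes by identifier.

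Counts were tested in R 4.3.3 with edgeR 4.0.16 (TMM, filterByExpr by group, quasi-likelihood test, Benjamini-Hochberg adjustment over all genes tested, calls at an adjusted p under 0.05). βEedKO and wild type were compared in a fit of 11 libraries and 4 groups (18685 genes), and heterozygous with wild type in a fit of 16 libraries and 6 groups (18828 genes). DESeq2 1.42.0 was an alternative, beside other scalings, no filter, other controls, a replicate block and leaving out each library. The SE of a log2 fold change was taken as its size over the square root of F. The common biological coefficient of variation was 0.456. With 2 or 3 libraries per group, p-values set a group difference against a spread estimated from these few libraries. That spread was estimated over all groups of a fit together. The older βEedKO libraries held the islets of more animals than the others, and whether their spread differed was not tested. The fits were tested on simulated data.

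The genes, lists and tests were chosen with earlier results of these data known, and the NF-κB list and the library sets after the values of the 10 genes were seen. Sets were cut at summed levels of 300 CPM for NF-κB target genes and 1000 CPM for interferon-induced genes. Named genes are the 10 genes, pathway and heat shock genes called at 8 or 25 weeks (at most the 3 largest per list, age and direction), Eed, Ins1, Ins2 and the 3 genes most like each of 2 mean patterns. Other genes with values, such as Atf5, Wfs1, Ern1, Eif2ak3 and the further ER cargo genes, were named after their values were seen.

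The labels do not say what replicate numbers mark. Same-numbered wild-type and βEedKO libraries of an age had correlated deviations from the group means (18828 genes). The values were 0.457 and 0.163 at 8 weeks and 0.176 and 0.255 at 25 weeks. Some libraries of different numbers also deviated together, up to 0.450, so these values do not settle whether the numbers pair libraries. Calls with the number as a block are given as an alternative. No 2 libraries of a group agreed within counting noise (chi-square per degree of freedom 31.03 to 591.6). Of the 10 genes, 10 were matched to the RefSeq promoter table by symbol.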

Additional observations from a re-analysis of the deposited data

How the results depend on the processing

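Of 1140 fold changes of single genes recomputed under other settings, 987 kept their direction and their side of the threshold, 126 changed sign without being called in either fit and 27 became called. None of the 10 genes was called in the fits reported first, which leaves no called value to reverse. Leaving out 1 library at a time gave 0 to 2 calls among the 10 genes for βEedKO against wild type at 25 weeks (2 without wild-type replicate 2) and 0 to 0 in the other 5 comparisons; among the 82 other pathway genes it gave 0 to 4 calls at 25 weeks and 0 to 0 at 8 weeks. Those of these fits with at least 2 libraries in each group called 2.62% to 8.76% of all genes at 25 weeks. At 8 weeks they called 0.0967% to 0.735% of all genes. The cause of the changes between fits was not tested.

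Among the 10 genes, calls at 25 weeks numbered 1 with no filter, with DESeq2, with all 16 libraries, against heterozygous controls and against pooled controls (Ddit3 each time), and 2 with the library set as a term or without the 4 libraries low in NF-κB target genes. At 8 weeks 1 was called against heterozygous controls. The library set as a term gave 1 call for the difference between the ages, and leaving out the 4 libraries gave 6 calls between ages in wild type and 7 between heterozygous and wild type at 8 weeks. Among the 82 genes at 8 weeks 4 were called against heterozygous controls (4.74% of all genes), 2 against pooled controls (2.67%) and 9 without the 4 libraries (4.36%). At 25 weeks 6 were called with DESeq2 (11.3% of all genes), 5 with all 16 libraries (8.99%), 5 against heterozygous controls (8.36%), 7 against pooled controls (14.1%), 6 when the 8-week libraries were limited to those high in interferon-induced genes (13.9%), 13 without the 4 libraries (15.4%) and 14 with the library set as a term (18.1%).

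With the replicate number as a block, 1 of the 10 genes (Ddit3) and 6 of the 82 were called at 25 weeks (5.5% of all genes), and no other call among the 10 changed. Heterozygous and wild-type libraries of the same number correlated at 0.161, 0.08 and 0.0923 in their deviations. This does not settle whether their numbers pair them, and the block gave 0 calls among the 10 there. The start site states held within 500 bp except at Trib3, and with only the bases before the start 1 promoter in place of 2 held the ATF4 and CHOP element. With 2 βEedKO libraries at 25 weeks, 1 of them with acinar markers at 332404 CPM, the standard errors of the 10 genes there were 0.357 to 1.13, which limits the size of change that could be detected.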
